A study of Mus musculus with 6 samples.

Results

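A set of 10 imprinted genes with roles in growth control and stem cell quiescence was followed in RNA-seq of LSK cells (Lin- Sca-1+ c-Kit+ bone marrow cells, the compartment of hematopoietic stem and early progenitor cells) after loss of the histone methyltransferase Setd1b. They were H19, Meg3, Rian, Mirg, Cdkn1c, Ndn, Grb10, Peg3, Plagl1 and Igf2r, chosen by name from the 45706 genes of the count table. All 10 were found in the table, and 6 of them passed the filter on low counts, as did 15184 genes in all. H19, Rian, Mirg and Peg3 stayed under the filter and were described by their reads alone.

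LSK cells were sorted from 3 mice labelled heterozygous (Setd1b FD/+; RC/+, Ctrl) and 3 labelled homozygous (Setd1b FD/FD; RC/+, cKO), and 1 library was made from each mouse. FD is the conditional allele, of which Cre removes a single coding exon, and RC is the tamoxifen-inducible Rosa26-Cre-ERT2 allele, which acts in almost all tissues and not in blood cells alone. All 6 mice were male C57BL/6, all carried RC/+ and at least 1 FD allele, and all received tamoxifen, so that Ctrl cells also lost a Setd1b allele. Tamoxifen was gavaged at 4.5 mg per day for 4 days and, after a pause of 3 days, for 2 further days, which makes 6 doses by the labels, although the sources differ on the number of doses, and mice were sacrificed 3 days after the last dose. Ctrl and cKO mice were littermates, but which mice shared a litter is not given. They were 16 weeks old, except for the cKO mouse AH74 at 17 weeks. The Ctrl mice were AI03, AI54 and AI56, the cKO mice AI02, AI55 and AH74, and values are given in this order throughout. Library numbers fell into a first series (AI03, AI02, AI55) and a second series (AI54, AI56, AH74).

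Between 13003573 and 21277519 reads per library were counted on genes. Levels are given as CPM, the reads of a gene per 1000000 reads of its library, scaled with TMM factors between 0.945 and 1.03. Setd1b itself had 194 to 223 CPM in the libraries labelled Ctrl and 272 to 314 CPM in those labelled cKO (log2 fold change 0.46, adjusted p = 0.0015), the opposite of what the labels alone would give. The deposited count sums all exons of the gene, and reads of the deleted exon were not separated, so that this count did not check the deletion. Every direction given here as cKO against Ctrl rests on the labels. Kit and Ly6a, which encode the sort markers c-Kit and Sca-1, did not pass the test. Among other surface genes, which did not define the LSK gate, Ptprc and Cd34 did not pass it either. Ly6e, also outside the gate, was lower in cKO (log2 fold change -0.37, adjusted p = 0.0035). Of the genes for lineage antigens, Cd3e, Cd8a and Ly6g had at most 2 counts in any library. Itgam was read in all libraries and was higher in cKO (37.7 and 50.7 CPM in the mean, log2 fold change 0.43, adjusted p = 0.019). Cd4, Klrb1c and Cd5 had group means of 0.609 to 3.38 CPM and did not pass the test.

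An imprinted gene is transcribed mainly from the allele of a single parent. The parental alleles are told apart by DNA methylation laid down in the germ line, on either the active or the silent allele. Imprinted genes are known for the control of fetal growth, and several of them, with Cdkn1c and the H19-Igf2 locus among the best studied, are known to be enriched in long-term hematopoietic stem cells and to hold them in quiescence. H19, Meg3, Rian, Mirg, Cdkn1c, Igf2r and, outside the brain, Grb10 are expressed from the maternal allele in the mouse, and Ndn, Peg3 and Plagl1 from the paternal allele. Reads were not assigned to parental alleles, and the mice were of an inbred strain, so that the counts give the output of both alleles together.

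Cdkn1c, which encodes the cyclin-dependent kinase inhibitor p57, was higher in cKO cells, and Grb10, which encodes an adaptor that dampens insulin and IGF receptor signaling, was lower. These were the only 2 of the 10 genes past an adjusted p of 0.05, 1 in each direction. Among all tested genes 3.88% were called higher and 3.79% lower in cKO. The maternally expressed long noncoding RNA Meg3 had more reads in cKO but did not pass the test, and its groups overlapped. H19, the noncoding partner of Igf2, had most of its reads in 2 Ctrl libraries. Ndn, Plagl1 and Igf2r did not pass the test, and Rian, Mirg and Peg3 had at most 18 counts in any library.

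**Figure D1:**
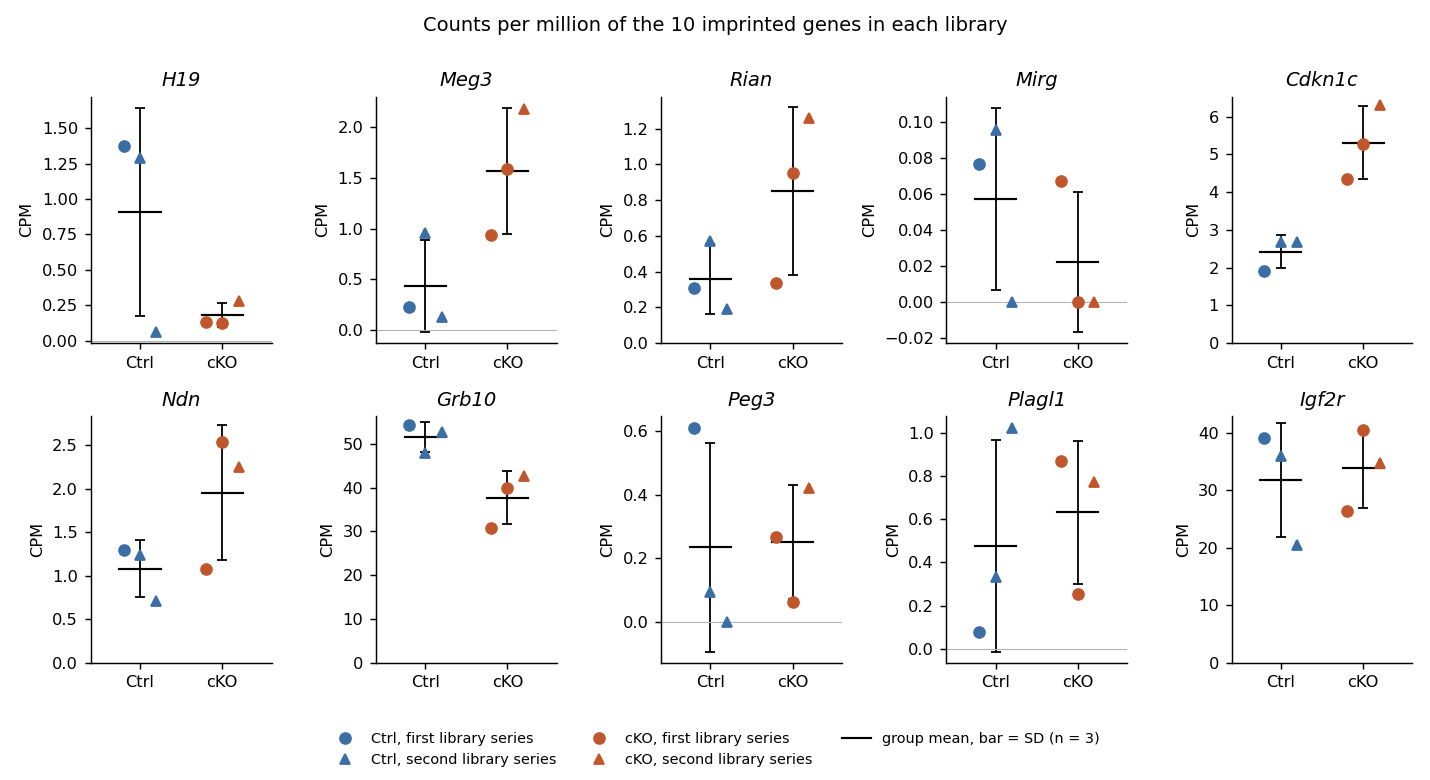
CPM (linear axis) of each of the 10 imprinted genes in the 6 libraries, with Ctrl in blue, cKO in orange, circles for the first and triangles for the second library series, and the group mean with its SD (n = 3). The groups are apart in Cdkn1c (Ctrl 1.91 to 2.69, cKO 4.36 to 6.31 CPM) and Grb10 (Ctrl 47.8 to 54.3, cKO 30.8 to 42.6 CPM) and overlap in the other 8 genes. Of all tested genes, 27.3% had no overlap between the groups.

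Sequences at the start of Grb10, the gene that fell, are shown because its count pools transcripts of more than 1 start site, and because imprinted promoters are often rich in CpG, the dinucleotide that carries the methylation mark. RefSeq (GRCm38.p6) gave windows of 250 bases before to 50 after a transcription start for 8 of the 10 genes, but none for Cdkn1c and H19. CpG dinucleotides are in capitals below. Both windows lie on the minus strand, the upstream one at chr11:12037371-12037670 and the downstream one at chr11:12027922-12028221.
Grb10 upstream start: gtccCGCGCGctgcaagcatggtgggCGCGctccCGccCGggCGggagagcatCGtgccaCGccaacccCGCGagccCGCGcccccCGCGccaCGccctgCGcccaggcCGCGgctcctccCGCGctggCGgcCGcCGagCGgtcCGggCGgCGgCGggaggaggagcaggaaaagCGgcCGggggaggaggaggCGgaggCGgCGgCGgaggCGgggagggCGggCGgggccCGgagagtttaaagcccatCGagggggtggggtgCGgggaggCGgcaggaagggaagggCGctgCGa
Grb10 downstream start: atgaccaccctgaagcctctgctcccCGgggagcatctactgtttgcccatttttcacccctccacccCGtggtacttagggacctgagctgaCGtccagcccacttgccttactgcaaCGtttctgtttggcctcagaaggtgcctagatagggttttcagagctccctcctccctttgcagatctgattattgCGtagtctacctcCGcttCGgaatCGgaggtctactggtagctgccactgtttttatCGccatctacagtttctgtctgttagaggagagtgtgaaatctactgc

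The upstream window of Grb10 held 45 CpG, and 1.93% of the 32851 mouse promoter windows of this length held as many or more. Its downstream window held 9, close to the median of 7 over all windows. CG reads the same on both strands, and 94.6% of all windows held at least 1. Among the other genes, the window of Igf2r held 34 CpG and that of Plagl1 26, Peg3 had 13, Ndn 11 and Mirg 10, the 2 windows of Meg3 had 13 and 1, and that of Rian had none. Methylation was not measured in this table.

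The mature miRNAs of Mir675, hosted by H19, and of Mir770, hosted by Meg3, are shown. They are not the full set of these hosts, and were chosen because small RNAs are an output of noncoding genes that the table lists separately. Their seeds (bases 2 to 8) are in capitals, and the 4 seeds differ from each other. Mir675 overlaps 3.54% of the exon bases of H19, and Mir770 lies within Meg3.
mmu-miR-675-5p: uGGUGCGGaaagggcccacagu
mmu-miR-675-3p: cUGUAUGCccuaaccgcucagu
mmu-miR-770-5p: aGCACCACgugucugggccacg
mmu-miR-770-3p: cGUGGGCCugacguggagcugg

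Of 31 miRNA genes listed from the H19 locus and the Meg3 to Mirg locus, 29 had 0 reads in every library, and the other 2, Mir370 and Mir433, had 1 read each. These entries count reads on the hairpin gene in libraries of total RNA, so that they say nothing of mature miRNA levels. Some hairpins, such as Mir675 and Mir770, lie on exons of their host, and how reads shared with the host were assigned was not examined.

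Levels were first compared between the 10 genes, as TPM (reads per exon base, scaled to a sum of 1000000 in each library), since the gene models differ in length. Over all 6 libraries the order of mean TPM was Grb10 (6.12), Igf2r (4.42), Cdkn1c (2.51), Ndn (1.16), H19 (0.297), Plagl1 (0.0858), Meg3 (0.0699), Rian (0.0433), Peg3 (0.0234) and Mirg (0.00723). Each of the first 4 genes was above the next in 6 of 6 libraries, although the ranges over libraries overlapped between all neighbors. The order pools both groups, and within cKO the means of H19 (0.0952), Plagl1 (0.103) and Meg3 (0.109) stood in the reverse order. From H19 down, neighbors held their order in only 2 to 4 of 6 libraries. Even Grb10 lay above only 43% of the tested genes in mean TPM, and H19 above 2.53%. All 10 genes together made up 78.0 to 99.3 CPM in Ctrl and 65.3 to 91.1 CPM in cKO, with most of these reads on Grb10 and Igf2r.

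Cdkn1c (chr7:143458350-143461050, minus strand, mm10) belongs to the imprinted Kcnq1 domain. Its protein binds cyclin-dependent kinases and holds cells out of the cycle. The 3 Ctrl libraries held 25, 56 and 42 reads and the 3 cKO libraries 65, 83 and 90, which corresponds to 1.91, 2.67 and 2.69 CPM and to 4.36, 5.27 and 6.31 CPM. Each cKO library was therefore above each Ctrl library, as was the case in 1 direction or the other for 27.3% of all tested genes. The mean rose from 2.42 ± 0.44 to 5.31 ± 0.98 CPM (SD, n = 3 each), and the fitted change was 2.17-fold (log2 fold change 1.12, SE 0.26, 95% interval 0.56 to 1.68, adjusted p = 0.017). Within the first library series, which had AI03 as its only Ctrl library, the log2 difference was 1.33. Within the second, which had AH74 as its only cKO library, it was 1.24. Without the cKO library AI55 the adjusted p was 0.066 (log2 fold change 1.12) and without AH74 it was 0.091 (0.98). An exact two-sided permutation test of 3 against 3 gave p = 0.1, the smallest it can give, for Cdkn1c and for Grb10.

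In bulk libraries, more cells of a type and more RNA per cell cannot be told apart. Genes enriched in long-term stem cells moved in the same libraries. Of 22 such genes, all tested, 10 were higher and none lower in cKO (median log2 fold change 0.54, against 0.00023 over all tested genes). Among them were Fgd5 (1.53, adjusted p = 2.7e-06), Procr, the surface protein EPCR (1.43, adjusted p = 0.00036), the adhesion molecule Esam (1.19, adjusted p = 0.0017), Pdzk1ip1 (1.10, adjusted p = 0.0017) and the integrin subunit Itgb3 (1.07, adjusted p = 0.0020). The shift did not hold for each gene of the list. Slamf1 (-0.01), Mllt3 (0.02), Meis1 (0.02) and Hlf (0.07) did not pass the test (adjusted p 0.68 to 0.96). The summed level of the 22 genes was 826 to 862 CPM in Ctrl and 936 to 1136 CPM in cKO. The part of this shift in the level of Cdkn1c was not tested.

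Genes of multipotent and lymphoid-primed progenitors went the other way, with 5 of 15 lower and none higher (median -0.49). Dntt, which adds nucleotides to antigen receptor junctions, fell most among the named ones (-5.86, adjusted p = 4.9e-08), followed by the immunoglobulin heavy chain gene Ighm (-1.73, adjusted p = 0.00021), the receptor gene Il7r (-1.42, adjusted p = 0.014) and Il12a (-1.23, adjusted p = 0.00033). The summed level of these 15 genes was 1803 to 2627 CPM in Ctrl and 1353 to 1523 CPM in cKO.

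Regulators of quiescence and of the G1 phase other than the imprinted genes were counted beside Cdkn1c. Of 26 genes, all tested, 7 were higher and none was lower in cKO (median log2 fold change 0.16). They included the related inhibitor Cdkn1b, which encodes p27 (0.32, adjusted p = 0.031), and with it Txnip, the thioredoxin-interacting protein (0.45, adjusted p = 0.0056), and Tek, the angiopoietin receptor (0.82, adjusted p = 0.0058). Cdkn1b rose less than Cdkn1c, from a mean of 46.0 to 57.5 CPM, and was not past the threshold in 4 of the 6 fits that left out a mouse. Of 25 genes of replication and mitosis, E2f1 (-0.33, adjusted p = 0.019) and Mcm5 (-0.68, adjusted p = 0.042) were lower and none was higher (median -0.09). Neither call held in all fits with a mouse left out.

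Kcnq1ot1, the paternally expressed antisense RNA of the Kcnq1 domain, whose transcription is known to silence Cdkn1c in cis, had 659 to 808 CPM in Ctrl and 557 to 625 CPM in cKO. The groups did not overlap, as in 27.3% of all tested genes. The log2 fold change was -0.26 with an adjusted p of 0.053, just beyond the threshold. With other settings it lay between 0.0024 and 0.16 and was past the threshold in 7 of 12. Phlda2, a maternally expressed gene of the same domain, had 30 reads in Ctrl and 17 in cKO and was not tested.

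The genes whose profile over the 6 libraries was most like that of Cdkn1c, by root mean square distance of mean-centred log2 CPM, were the transporter gene Abca5 (0.110), the kinase gene Pim2 (0.135) and Lzts1 (0.146). Their log2 fold changes were 1.26, 0.95 and 1.14.

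**Figure D2:**
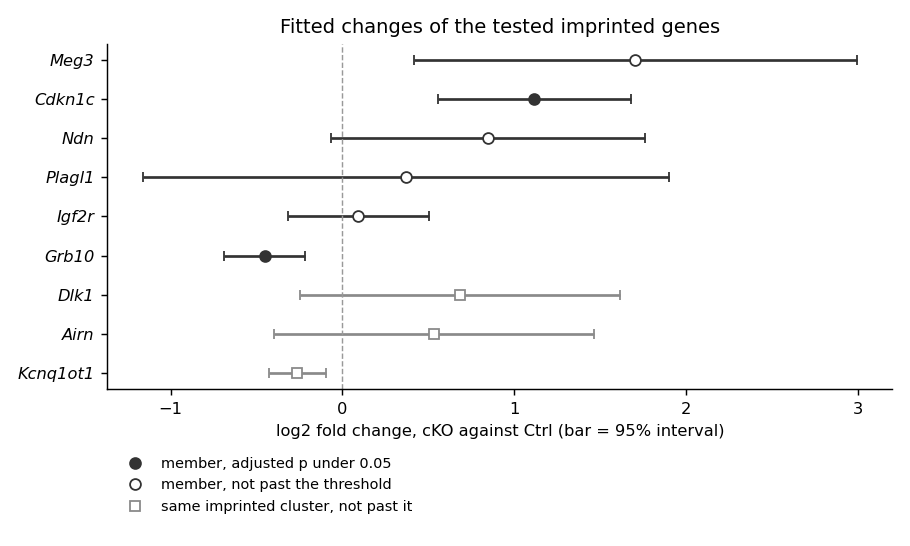
Fitted log2 fold change (cKO against Ctrl, edgeR) with its 95% interval for the 6 tested imprinted genes (black circles, filled where the adjusted p is under 0.05) and for 3 tested genes of the same clusters (gray squares). Cdkn1c (0.56 to 1.68) and Grb10 (-0.69 to -0.21) are filled, and that of Meg3 is wide (0.42 to 2.99).

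Grb10 (chr11:11930508-12038683, minus strand) was the most abundant of the 10 genes. With 710, 1003 and 825 reads in Ctrl and 460, 627 and 607 in cKO it also had the most reads in 5 of 6 libraries and in both groups. In CPM the values were 54.3, 47.8 and 52.8 in Ctrl, and 30.8, 39.8 and 42.6 in cKO. The highest cKO library therefore lay below the lowest Ctrl library, and 27.3% of all tested genes had no overlap in 1 direction or the other. The mean fell from 51.6 ± 3.4 to 37.7 ± 6.1 CPM, a 1.37-fold difference (log2 fold change -0.45, SE 0.11, 95% interval -0.69 to -0.21, adjusted p = 0.021). The log2 difference was -0.62 within the first library series, with AI03 as its only Ctrl library. It was -0.24 within the second, with AH74 as its only cKO library.

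Leaving out single mice raised the adjusted p of Grb10 above the threshold in 4 of 6 cases, at 0.060 without the Ctrl library AI03, 0.081 without the Ctrl library AI56, 0.085 without the cKO library AI02 and 0.056 without the cKO library AI55. The log2 fold change stayed between -0.55 and -0.32, with the smallest change in the fit without AI02, the library with the lowest level. Ddc, the paternally expressed neighbor of Grb10 in heart, had 16 reads in Ctrl and 25 in cKO and was not tested. The 3 profiles nearest to that of Grb10 were those of Lpin1, a phosphatidate phosphatase (distance 0.0558, log2 fold change -0.36, adjusted p = 0.058), and of the processed pseudogenes Gm15204 (0.0674) and Gm7808 (0.0704), whose reads may be shared with their parent genes.

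**Figure D3:**
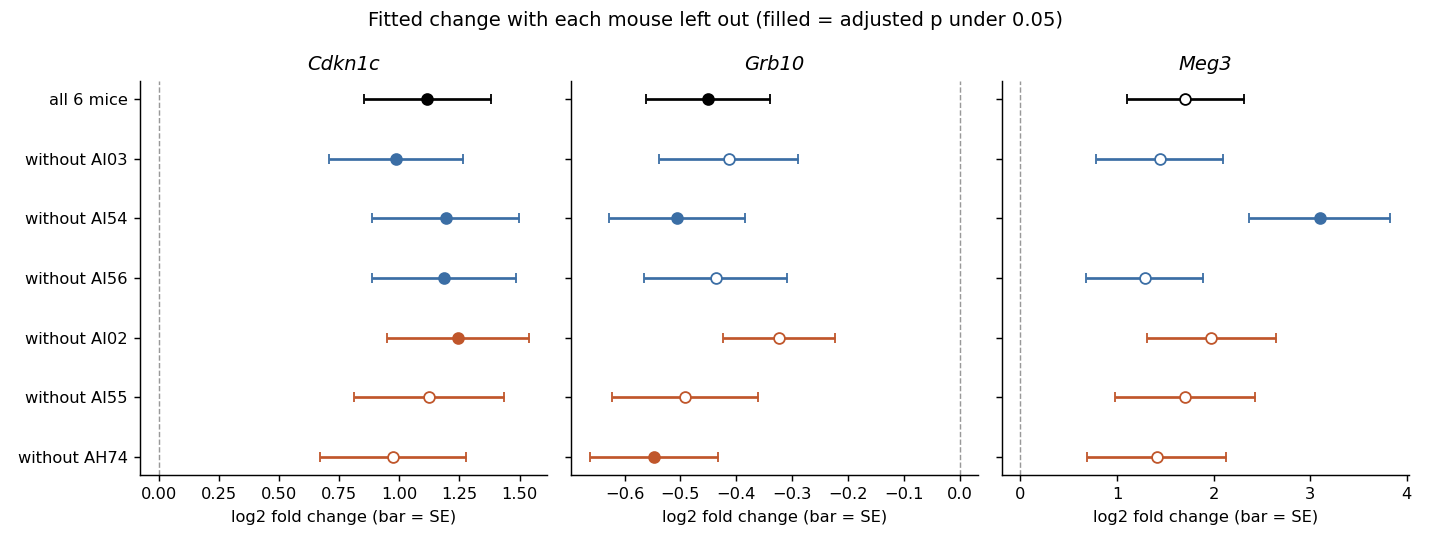
Fitted log2 fold change (cKO against Ctrl, bar = SE) of Cdkn1c, Grb10 and Meg3 with all 6 mice (black) and with each Ctrl (blue) or cKO (orange) mouse left out, filled where the adjusted p is under 0.05. The direction is the same in all 7 fits of each gene, Cdkn1c misses the threshold in 2, Grb10 in 4, and Meg3 passes it only in the fit without AI54, its discordant Ctrl library.

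Igf2r (chr17:12682406-12769664, minus strand) encodes the receptor that binds IGF2 and delivers it to lysosomes for degradation. Its CPM values were 39.1, 35.9 and 20.4 in Ctrl and 26.5, 40.5 and 34.7 in cKO. The groups overlapped, and the spread within Ctrl (31.8 ± 10.0 CPM) was larger than the difference from cKO (33.9 ± 7.0 CPM). The log2 fold change was 0.09 (SE 0.19, adjusted p = 0.82), with a 95% interval from -0.32 to 0.50. Its sign turned when the Ctrl library AI56 (-0.15) or the cKO library AI55 (-0.06) was left out. Airn, the paternal antisense RNA that silences Igf2r in cis, had 1.86 ± 1.11 CPM in Ctrl and 2.65 ± 1.05 CPM in cKO (log2 fold change 0.53, adjusted p = 0.52).

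The ligand of this pathway was scarcely read. Igf2 had 20 reads in all Ctrl and 18 in all cKO libraries. Igf1r, which transmits the growth signal, had 108 ± 8.7 CPM in Ctrl and 120 ± 6.9 CPM in cKO (log2 fold change 0.15, adjusted p = 0.24). Of 40 genes of the IGF, PI3K and mTOR pathway, Igf1r included, 34 were tested, none was higher, and only Igfbp7, which encodes a secreted IGF-binding protein, was lower (-1.45, adjusted p = 0.0089), not past the threshold without the Ctrl library AI56 or the cKO library AI55. The median over the 34 genes was 0.03.

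Meg3 (chr12:109541001-109571726, plus strand), Rian (chr12:109603940-109661716) and Mirg (chr12:109729764-109749460) are long noncoding RNAs of the Dlk1-Dio3 domain, transcribed in the same direction from the maternal chromosome and hosts of small nucleolar RNAs and miRNAs. Meg3 had 3, 20 and 2 reads in Ctrl and 14, 25 and 31 in cKO. In CPM, these were 0.230, 0.953 and 0.128 in Ctrl, and 0.938, 1.59 and 2.17 in cKO. The Ctrl library AI54 lay just above the cKO library AI02, and the other Ctrl libraries lay below all 3 cKO libraries.

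The mean of Meg3 was 0.437 ± 0.450 CPM in Ctrl and 1.57 ± 0.62 CPM in cKO. The log2 fold change of 1.71 (SE 0.60, 95% interval 0.42 to 2.99, unadjusted p = 0.013) had an adjusted p of 0.10 and did not pass the threshold. Meg3 reached the filter on low counts only because its 3 cKO libraries and AI54 had more than 10 reads, and with such a filter a gene that is low in both groups is not seen. With no filter on low counts the adjusted p was 0.031 (log2 fold change 1.72). Without AI54 it was 0.018 (3.10), but AI54 is the discordant Ctrl library, and Meg3 enters that fit only through the cKO group where it is high, so that this value is no support for a difference. Within the library series the log2 differences were 2.46, with AI03 and its 3 reads as the only Ctrl library, and 2.01, with AH74 as the only cKO library.

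Rian had 4, 12 and 3 reads in Ctrl and 5, 15 and 18 in cKO, with overlap between the groups, and was under the filter. With no filter its log2 fold change was 1.19 (adjusted p = 0.42). Mirg had at most 2 reads in any library, 3 in all Ctrl and 1 in all cKO libraries, and 0 reads in a library still allow a count of up to 3. The 3 RNAs together had 8, 34 and 5 reads in Ctrl and 20, 40 and 49 in cKO, so that AI54 was also the highest Ctrl library in their sum and lay above the cKO library AI02. Other genes of the domain did not pass the test or could not be tested. Dlk1, its paternally expressed Notch-like gene, had 1.08 ± 0.19 CPM in Ctrl and 1.72 ± 0.75 CPM in cKO (log2 fold change 0.68, adjusted p = 0.38), Rtl1 had 2 and 4 reads, and Dio3 had 0 reads throughout.

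H19 (chr7:142575529-142578143, minus strand), the maternally expressed noncoding RNA of the Igf2 locus and precursor of miR-675, had 18, 27 and 1 reads in Ctrl and 2, 2 and 4 in cKO. The exact Poisson intervals were 10.7 to 28.4, 17.8 to 39.3 and 0.0253 to 5.57 reads in Ctrl, while none of the cKO intervals reached above 10.2. These intervals cover counting error only, since reads of amplified libraries are not independent molecules. Thus 2 Ctrl libraries were high, and the Ctrl library AI56 lay below all 3 cKO libraries.

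H19 amounted to 46 reads in Ctrl and 8 in cKO, or 0.910 ± 0.734 and 0.181 ± 0.087 CPM. It was under the filter in the fit of all 6 libraries. With no filter the log2 fold change was -2.30 (adjusted p = 0.051), and with DESeq2 it was -2.34 (adjusted p = 0.16). In the fit without AI56 it was -2.85 (adjusted p = 0.025), but AI56 is the discordant Ctrl library, and H19 enters that fit only through the other Ctrl libraries where it is high, so that this value is no support for a difference. Without 1 of the cKO libraries the adjusted p lay between 0.18 and 0.31. The difference in H19 reads therefore rests on AI03 and AI54.

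**Figure D4:**
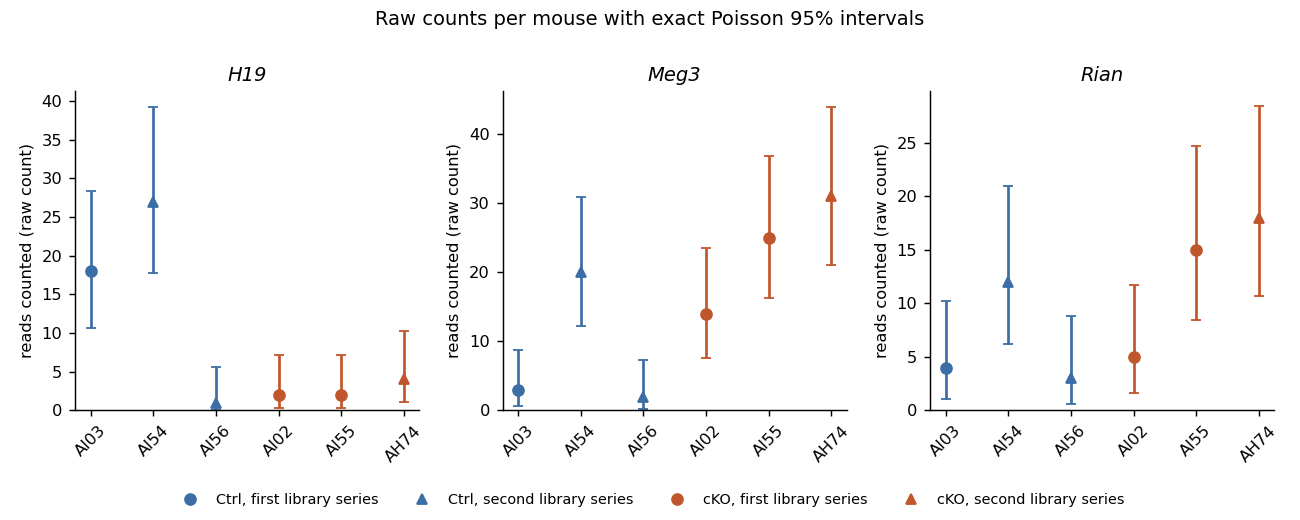
Raw reads of H19, Meg3 and Rian in each mouse (linear axes) with exact Poisson 95% intervals, Ctrl in blue and cKO in orange, circles for the first and triangles for the second library series. AI56 has 1 read of H19 and AI54 has 20 reads of Meg3, which sets each apart from the other Ctrl mice in that gene.

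Ndn (chr7:62348277-62349928, plus strand), which encodes necdin, a growth-suppressing protein of the Prader-Willi region, had 1.30, 1.24 and 0.704 CPM in Ctrl and 1.07, 2.54 and 2.24 CPM in cKO. AI55 and AH74 were above all Ctrl libraries, and AI02 lay among them. The mean was 1.08 ± 0.33 CPM in Ctrl and 1.95 ± 0.78 CPM in cKO (log2 fold change 0.85, SE 0.43, 95% interval -0.07 to 1.76, adjusted p = 0.26). It passed the threshold with none of 12 other settings. Its neighbor Magel2 had 0 reads, and Snrpn had 7 in Ctrl and 3 in cKO.

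Plagl1 (chr10:13060504-13131694, plus strand), a zinc finger factor that regulates other imprinted genes, varied strongly within both groups. It had 1, 7 and 16 reads in Ctrl and 13, 4 and 11 in cKO (log2 fold change 0.37, SE 0.72, adjusted p = 0.81), and the sign turned without AI03 (-0.07). Peg3 (chr7:6703892-6730421, minus strand), which encodes a zinc finger protein expressed from the paternal allele, had 8, 2 and 0 reads in Ctrl and 4, 1 and 6 in cKO, or 10 and 11 in all. Both genes overlapped between the groups, and at these counts a change could not have been detected unless it was large. Usp29 and Zim1, neighbors of Peg3, had 0 reads in all 6 libraries.

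The imprinted genes beyond the 10 were counted in lists by parental allele. Of 24 other maternally expressed genes 13 were tested, and Ppp1r9a, a gene for an actin-binding neurabin, was the only one past the threshold (64.1 to 91.2 CPM in the mean, log2 fold change 0.51, adjusted p = 0.0014), with a median of 0.08 over the 13. Of 31 other paternally expressed genes 30 were in the table and 14 were tested. Only Peg13, a noncoding RNA, was past the threshold, and it was lower in cKO (55.5 to 65.3 CPM in Ctrl and 39.9 to 48.0 CPM in cKO, log2 fold change -0.41, adjusted p = 0.013, and 0.068 without the cKO library AI02). The median over these 14 genes was 0.32.

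Factors that lay down, keep or erase imprint methylation were counted as a further list. Of 24 genes 21 were tested, none was lower, and Zfp57, the zinc finger protein that binds methylated imprinting control regions, was the only one higher (3.08 to 5.66 CPM, log2 fold change 0.88, adjusted p = 0.046). It missed the threshold in each of the 6 fits that left out a mouse, with adjusted p between 0.051 and 0.18. The median over the 21 genes was -0.03. Over all tested genes, 3.88% were called higher and 3.79% lower.

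**Figure D5:**
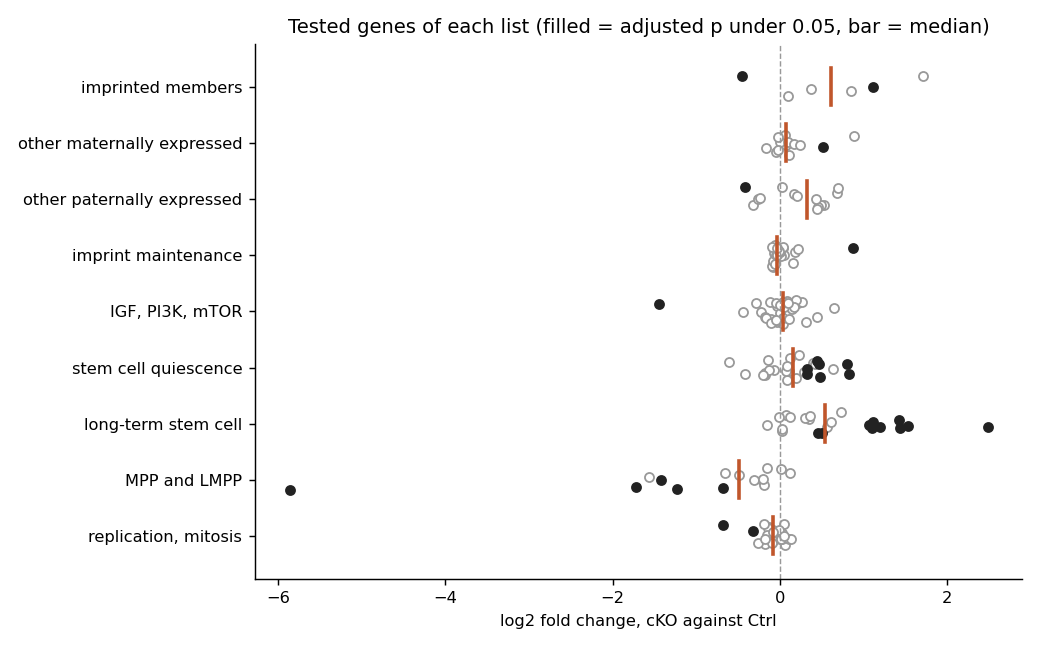
Fitted log2 fold change (cKO against Ctrl) of each tested gene of the imprinted genes and of the lists beside them, filled where the adjusted p is under 0.05, with the list median as an orange bar. Long-term stem cell genes lie to the right (10 of 22 filled, median 0.54) and genes of multipotent and lymphoid-primed progenitors (MPP and LMPP) to the left (5 of 15 filled, median -0.49), while the other imprinted genes hold 1 filled point each.

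Genes used as markers of other cell types also differed. Whether their reads came from such cells in the sort or from LSK cells themselves was not tested. Of 12 stromal genes 4 were tested, 1 higher (Pdgfrb, 0.83) and 2 lower (Cxcl12, -2.08, and Col1a2, -1.27), with a summed level of 36.0 to 44.0 CPM in Ctrl and 49.4 to 62.3 CPM in cKO. The higher sum in cKO was that of Pdgfrb, from a mean of 27.9 to 49.5 CPM, while Cxcl12 went from 4.26 to 1.02 CPM and Col1a2 from 4.79 to 1.97 CPM. No stromal gene was at 0 in every library, but Lepr, Dcn and Lum had at most 2 reads in any. Of 10 endothelial genes 7 were tested, 3 higher (Tie1, 0.78, Kdr, 1.90, and Flt4, 1.18) and 1 lower (Pecam1, -0.33). The summed level of the 10 genes was 186 to 194 CPM in Ctrl and 190 to 202 CPM in cKO, and none was at 0 throughout. Cdh5, Stab2 and Cldn5 were not tested and had 7, 14 and 9 reads in Ctrl and 23, 2 and 0 in cKO. Genes of granulocytes (6 of 7 tested), erythroid cells (4 of 7), B and antibody-secreting cells (3 of 5), and mast cells and basophils (5 of 8) were lower, and none of these lists held a higher gene. Of 3 tested T cell genes none was past the threshold, and of 9 lineage antigens, 4 of them tested, Itgam alone was. These lists held Trac but no other T cell receptor gene. Outside them, Tcrg-C1 (-3.99, adjusted p = 9.1e-08) and Trbc1 (-4.485, adjusted p = 0.0008) were lower in cKO, and the receptor loci were not counted here as a list. H19, Meg3 and Grb10 are known to be expressed in stromal and endothelial cells too, and the part of such cells in the results was not tested.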

How the data were processed

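Expression was measured by RNA-seq of LSK cells from 3 Ctrl and 3 cKO mice. Libraries were made with a stranded kit for total RNA of low input. The authors aligned the reads to GRCm38 (mm10) with GSNAP and assigned them to Ensembl genes with featureCounts 1.5.0 in its stranded mode, requiring a mapping quality of at least 1. The deposited values are raw counts of 45706 genes, not normalized and not pooled, and each sums all exons of a gene and both of its alleles. GENCODE M21 named 98.8% of the genes.

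From these counts, edgeR 4.0.16 (R 4.3.3) was used with TMM factors, filterByExpr defaults and the quasi-likelihood test over all 15184 genes kept. The model held genotype alone. Benjamini-Hochberg adjustment covered all genes, with a threshold of 0.05. The SE was derived from the F statistic, as the size of the log2 fold change over the root of F. Differences within a library series are the log2 ratio of the mean CPM of cKO to that of Ctrl, with no prior count. The nearest profiles use log2 CPM with a prior count of 2. TPM was computed from the exon lengths deposited with the counts. The mice were littermates per the study, but which of them shared a litter is not given in the sources used here, and mice were numbered in accession order, so that no samples were paired.

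The imprinted genes and all lists were chosen with earlier results of these data known. Named were all 10 genes, their cluster neighbors, Setd1b, Igf1r, up to 5 genes past the threshold with the smallest adjusted p per list, and the 3 nearest profiles (mean of at least 1 CPM) of the leading gene in each direction. Some items are not reported here. Markers at or near 0 were named after their values had been seen.

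Alternatives were DESeq2 1.42.0, DESeq2 size factors in edgeR, no filter, a minimum of 10 counts in each library, omission of 394 mitochondrial, ribosomal RNA and most abundant genes (above 1% of a library), the library series as a covariate, and leaving out each mouse. The fit was checked on simulated counts. Groups of 3 were not screened for outliers.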

Additional observations from a re-analysis of the deposited data

How the results depend on the processing

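With no filter on low counts, 2 of the 10 genes were called higher (Cdkn1c and Meg3). Leaving out 1 mouse gave 0 to 2 genes higher and 0 to 1 lower. Without the Ctrl mouse AI56, Grb10 missed the threshold. The 1 gene counted as lower there was H19, which entered that fit only through the 2 Ctrl libraries where it is high, and likewise Meg3 without AI54 entered only through cKO, so that neither is support for a difference. Over 12 alternatives the log2 fold change of Cdkn1c lay between 0.98 and 1.28 (past the threshold in 10) and that of Grb10 between -0.55 and -0.32 (past it in 8). Both were called with DESeq2, with its size factors, with either filter, without the most abundant genes and with the library series as a covariate. The sign turned for Plagl1 without AI03 and for Igf2r without AI56 (-0.15) or AI55 (-0.06). Leaving out 1 mouse gave log2 fold changes from -0.066 to 1.44 for Plagl1 and from -0.15 to 0.26 for Igf2r, none of them past the threshold. With at least 10 counts in every library, Meg3 and Plagl1 could not be fitted. No paired analysis was possible because the labels do not say which of the littermates belong together. Depth limits H19, Meg3, Rian, Mirg, Peg3 and Plagl1, which had at most 31 reads in any library. A threshold passed with 6 mice was often missed with 5, where fewer samples were fitted.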
